A study of Juglans regia with 12 samples.

Results

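miR159 in flower buds of Persian walnut (Juglans regia) is described here from 41 of the 931 miRNA sequences counted in these buds. A sequence was taken as miR159 where its matched name, the name of a miRNA of another plant, carries the number of miR159 and no other. Of the 41, 21 had at least 60 counts over the 6 small RNA libraries and are described singly; the other 20 held 220 counts in all and are given as a sum. At this limit, jre-MIR159-19 had 71 counts and jre-MIR159-13 had 55. A further 17 sequences carry the family name MIR159 but are matched to miR319 or miR156 and were left out.

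The early-flowering group is a precocious walnut labelled with an early flower stage, and the late-flowering group is a late-fruiting walnut labelled with a late flower stage. Each gave 3 miRNA libraries from field-grown flower buds, with no treatment named. The comparison is thus of walnut types, and type and bud stage cannot be told apart. Whether the libraries came from separate trees is not stated, so the p-values below cover the spread between libraries, part or all of which may be technical.

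miR159 is a conserved plant miRNA that guides cleavage of mRNAs of GAMYB-type transcription factors, such as MYB33 and MYB65 in Arabidopsis. Those factors act in gibberellin responses, in anther development and in flowering, and excess miR159 in Arabidopsis delays flowering under short days and impairs anthers. It is closely related in sequence to miR319, which targets TCP genes. In Arabidopsis the long miR159 and miR319 precursors are cut from the loop towards the base, which releases more than 1 small RNA duplex. The mRNA genes of these samples carry no names here, so GAMYB targets and bud markers were not analysed.

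The dominant miR159 sequence was jre-MIR159-2, 21 bases long, whose seed (bases 2 to 8, from the 5′ end) is in capitals:

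jre-MIR159-2: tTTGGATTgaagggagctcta

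Its most abundant near-identical forms are shown because they differ in which end or inner base is changed. In them the capital is the base that differs from jre-MIR159-2. Positions count from 1 at the 5′ end, with the base of jre-MIR159-2 written first, so that A21G is an A in jre-MIR159-2 and a G in the form.

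jre-MIR159-9 (T20C): tttggattgaagggagctcCa

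jre-MIR159-6 (A21G): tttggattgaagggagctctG

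jre-MIR159-10 (A21T): tttggattgaagggagctctT

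jre-MIR159-27 (A21C): tttggattgaagggagctctC

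jre-MIR159-36 (T1C): Cttggattgaagggagctcta

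jre-MIR159-4 (T7C): tttggaCtgaagggagctcta

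jre-MIR159-53 (G12A): tttggattgaaAggagctcta

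Of the 41 sequences, 25 were near-identical to jre-MIR159-2, meaning that they aligned without gaps to at least 16 of its bases, with starts up to 3 bases apart and at most 2 mismatches. No listed form differed from it only in length (0 of 25). The sources used here do not state how reads were assigned to listed sequences, or whether mismatches were allowed or reads pooled. A count of a substituted form may therefore include reads that differ from the printed sequence, and whether the forms are separate loci, altered ends or sequencing errors was not tested. The seed ttggatt was shared by 17 sequences, which held 99.5% of all miR159 counts. The single-base change of jre-MIR159-4 lies in the seed, and 3 sequences with the seed ttggact held 0.260%. Sequences of 21 bases held 99.7% of miR159 counts and those of 20 bases 0.183%.

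The 41 miR159 sequences held 40.2% of all listed miRNA counts, and jre-MIR159-2 ranked first in each of the 6 libraries. Summed over libraries it was 3.24 times as abundant as the next sequence. The libraries held 309697, 611620 and 646408 listed miRNA counts in early-flowering buds, against 614838, 447102 and 473151 in late-flowering buds. These totals cover listed miRNAs, not whole libraries.

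jre-MIR159-2 had 346703, 405062 and 455408 CPM in early-flowering replicates 1, 2 and 3, against 367932, 252514 and 241457 CPM in late-flowering replicates 1, 2 and 3. CPM here are counts scaled to a common library size with TMM, a factor that corrects for composition. Late-flowering replicate 1 lay above early-flowering replicate 1, so the types overlapped. The means were 402391 ± 54402 CPM and 287301 ± 70047 CPM (SD, n = 3 each), a log2 fold change of 0.49 (SE 0.22) that did not pass the edgeR quasi-likelihood test (adjusted p = 0.155). As a share of the listed counts, which uses no scaling, jre-MIR159-2 took 32.5%, 40.5% and 44.4% in early-flowering buds, against 34.1%, 26.3% and 27.3% in late-flowering buds. Exact binomial 95% intervals (Clopper-Pearson) reached at most 0.165 points to either side and cover counting error only. A lower level in whole buds can come from fewer cells with the miRNA or from less of it per cell, and these cannot be told apart.

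The sum of all miR159 sequences did not overlap between types. It was 418085, 475502 and 507025 CPM in early-flowering buds, against 406869, 285084 and 279214 CPM in late-flowering buds. The gap between the lowest early-flowering and the highest late-flowering library was small beside the range within a type. The log2 fold change was 0.53 (SE 0.17), and the edgeR adjusted p over the 37 families tested was 0.0829, so the sum did not pass; 13.5% of families passed, 8.11% in this direction. As a share of listed counts, miR159 held 45.4% ± 5.42 in early-flowering and 33.0% ± 4.18 in late-flowering buds (SD, n = 3 each), with an exact two-sided permutation p of 0.1, the smallest that 3 against 3 libraries allow. The call for the sum turned on single libraries and on scaling. It passed without early-flowering replicate 1 (log2 0.58, edgeR adjusted p = 0.0109) and without late-flowering replicate 1 (log2 0.72, edgeR adjusted p = 0.0103). In these fits 19 of 42 and 6 of 40 families passed, against 5 of 37 in the main fit. The sum had a log2 fold change of 0.30 without early-flowering replicate 3.

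**Figure D1:**
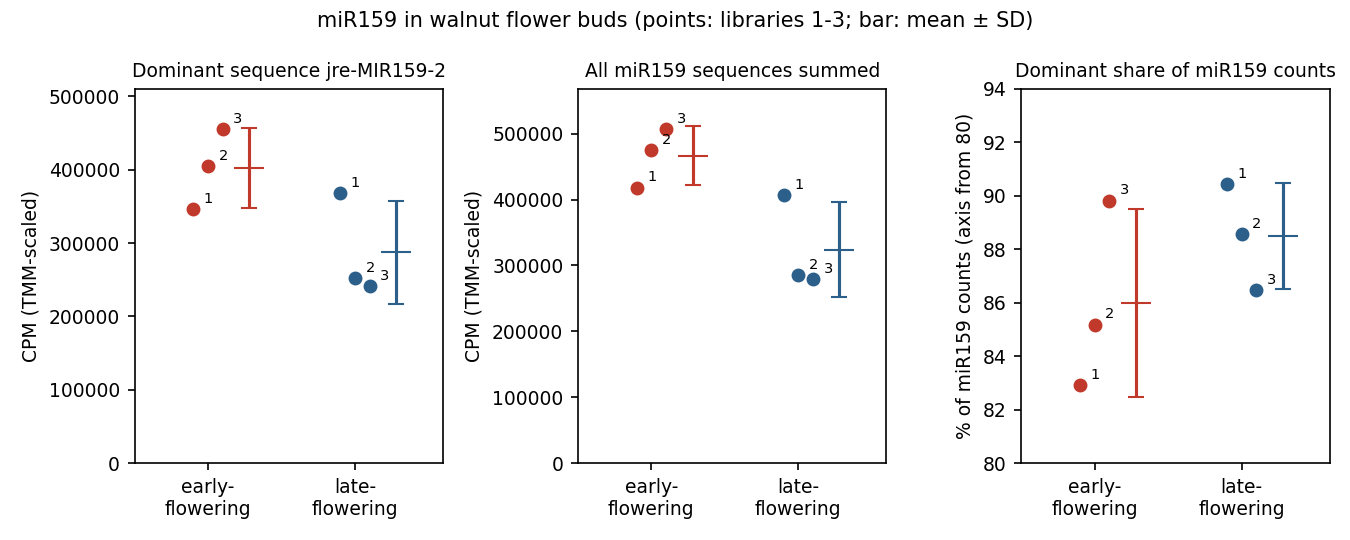
Levels of jre-MIR159-2 and of all miR159 sequences summed (TMM-scaled CPM) and the share of miR159 counts held by jre-MIR159-2 (percent, axis from 80), by walnut type. Points are libraries with their replicate number, and bars are mean ± SD; the types overlap for jre-MIR159-2, whose late-flowering replicate 1 stands at 367932 CPM, and do not overlap for the sum.

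Within miR159, jre-MIR159-2 held 82.9%, 85.2% and 89.8% of the counts in early-flowering buds, against 90.4%, 88.6% and 86.5% in late-flowering buds. The ranges overlapped, and the means of 86.0% ± 3.51 and 88.5% ± 1.98 (SD, n = 3 each) differed with an exact two-sided permutation p of 0.3. The difference of -2.52 points was smaller in size than the SD within early-flowering buds. Near-identical forms made up 12.1% of all miR159 counts. They numbered 20.3, 17.0 and 11.0 per 100 counts of jre-MIR159-2 in early-flowering buds, against 10.4, 12.7 and 15.4 in late-flowering buds (exact two-sided permutation p = 0.4 on the log2 ratio).

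Nearly all of these near-identical counts lay in forms changed at the last pair of positions, 20 and 21. The 7 sequences changed there alone held 11.5% of miR159 counts. The 7 changed only at inner positions held 0.291%, and the 2 changed only at position 1 held 0.308%. This grouping by position was made after the values were seen.

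The forms changed at the 3′ end varied between libraries of the same type. jre-MIR159-6 (A21G) had 8.14, 4.93 and 3.31 counts per 100 of jre-MIR159-2 in early-flowering buds, against 2.56, 3.58 and 4.07 in late-flowering buds. jre-MIR159-9 (T20C) had 5.35, 5.65 and 3.06 in early-flowering buds, against 3.20, 3.30 and 4.90 in late-flowering buds. jre-MIR159-10 (A21T) had 4.98, 4.72 and 3.32 in early-flowering buds, against 3.30, 4.24 and 4.70 in late-flowering buds. For each of these 3 forms, early-flowering replicate 3 and late-flowering replicate 1 were the lowest of their type, and the types overlapped. The scarcer jre-MIR159-27 (A21C) had 0.969, 0.861 and 0.549 in early-flowering buds, against 0.550, 0.764 and 0.871 in late-flowering buds, with the same pair of libraries lowest. All of these ratios share the count of jre-MIR159-2 as divisor, so they are not independent. The CPM of jre-MIR159-2 was the highest of its type in the same pair of libraries (455408 and 367932).

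Forms changed inside the sequence or at its 5′ base were scarcer, and the most abundant of them varied less. jre-MIR159-36 (T1C) had 0.292, 0.292 and 0.319 counts per 100 of jre-MIR159-2 in early-flowering buds, against 0.339, 0.326 and 0.314 in late-flowering buds. jre-MIR159-53 (G12A) had 0.0843, 0.0641 and 0.0648 in early-flowering buds, against 0.0682, 0.0790 and 0.0712 in late-flowering buds. The types overlapped for both. The 20-base forms jre-MIR159-5 (T1C) and jre-MIR159-41 (G13A) ranged from 0.0234 to 0.0468 and from 0.0102 to 0.0278 over the 6 libraries, also with overlap. Summed, the 7 forms changed only inside had 0.371, 0.340 and 0.335 in early-flowering buds, against 0.3125, 0.318 and 0.322 in late-flowering buds. The 2 forms changed only at position 1 had 0.332, 0.338 and 0.353 in early-flowering buds, against 0.363, 0.364 and 0.360 in late-flowering buds. Neither sum overlapped between types, with the inner forms higher and the position 1 forms lower in early-flowering buds (log2 differences 0.13 and -0.086, exact permutation p = 0.1 each, the smallest possible). Of the 3621 counts of the inner forms, 2224 were of jre-MIR159-4, so the inner sum is not independent of that form. Likewise, 3433 of the 3840 counts of the position 1 forms were of jre-MIR159-36. The ratios of jre-MIR159-36 and jre-MIR159-5 each overlapped between types and differed in sign (log2 differences -0.12 and 0.22). As given below, the position 1 sum spread over the 6 libraries no more than counting error gives.

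The seed-changed jre-MIR159-4 (T7C) was the near-identical form with at least 100 counts whose ratio did not overlap between types, at 0.227, 0.216 and 0.211 in early-flowering buds against 0.188, 0.190 and 0.183 in late-flowering buds. The difference was 0.22 on the log2 scale. Its exact permutation p of 0.1 is the smallest possible, and the Benjamini-Hochberg value over the 19 ratios compared was 0.894. jre-MIR159-46 (A6T) and jre-MIR159-58 (T7G), also changed in the seed, stayed within 0.0228 to 0.0387 and 0.00525 to 0.00935 per 100 over the 6 libraries.

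The spread of each ratio over the 6 libraries was set against counting error as a chi-square per degree of freedom, where 1 is the value counting error alone gives. It was 1231 for jre-MIR159-6, 674 for jre-MIR159-9, 260.5 for jre-MIR159-10 and 80.2 for jre-MIR159-27. It was 2.11 for jre-MIR159-36, 2.35 for jre-MIR159-4, 1.36 for jre-MIR159-53, 1.37 for jre-MIR159-46, 0.498 for jre-MIR159-58, 4.12 for jre-MIR159-5 and 2.39 for jre-MIR159-41. The sum of the forms changed only inside had 1.73. The sum of those changed only at position 1 had 0.757, no more spread than counting error gives. The value grows with counts, and the 3′ end forms are also the more abundant ones. The highest ratio over the lowest, which does not scale with counts in that way, was 3.18 for jre-MIR159-6, 1.85 for jre-MIR159-9, 1.51 for jre-MIR159-10 and 1.77 for jre-MIR159-27. It was 1.16 for jre-MIR159-36, 1.24 for jre-MIR159-4, 1.32 for jre-MIR159-53, 1.70 for jre-MIR159-46, 1.78 for jre-MIR159-58 and 2.72 for jre-MIR159-41, with jre-MIR159-5, whose range is given above, between the last pair. For jre-MIR159-18 and jre-MIR159-48 it was 2.33 and 2.55. On this measure the 3′ end forms and the others overlapped. jre-MIR159-46, jre-MIR159-58, jre-MIR159-5, jre-MIR159-41, jre-MIR159-18 and jre-MIR159-48 had 85 to 407 counts over the 6 libraries, so counting error adds to their values.

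**Figure D2:**
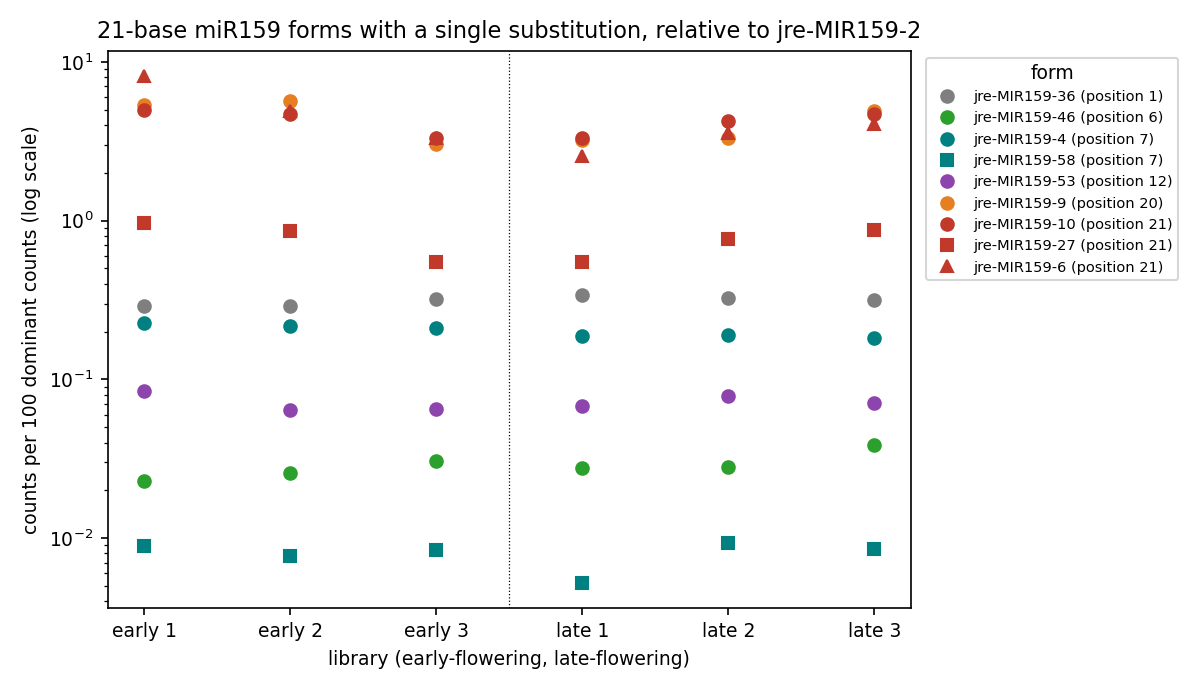
Counts of each 21-base form with a single substitution per 100 counts of jre-MIR159-2 (log axis) in the 6 libraries, early-flowering at the left. Markers are forms, with the changed position in the legend; jre-MIR159-6 (position 21) lies between 2.56 and 8.14, while jre-MIR159-36 (position 1) stays between 0.292 and 0.339.

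**Figure D3:**
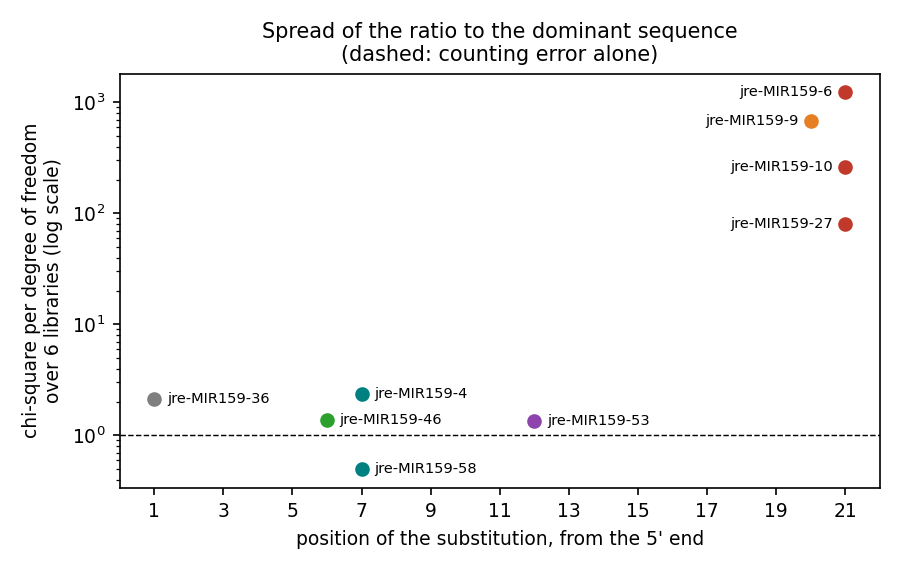
Chi-square per degree of freedom of the ratio to jre-MIR159-2 over 6 libraries (log axis) against the position of the substitution. Each point is a 21-base form with a single substitution; the 4 forms changed at positions 20 and 21 lie between 80.2 and 1231, and the 5 changed at positions 1 to 12 lie between 0.498 and 2.35.

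Forms with a pair of changes were set beside the single-change form with the same 3′ change. jre-MIR159-7 carries A15G and A21G, so it holds the end change of jre-MIR159-6, and jre-MIR159-40 carries T1C and T20C on 20 bases.

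jre-MIR159-7: tttggattgaagggGgctctG

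jre-MIR159-40: CttggattgaagggagctcC

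Per 100 counts of jre-MIR159-6, jre-MIR159-7 had 0.439, 0.459 and 0.431 in early-flowering buds, against 0.597, 0.545 and 0.475 in late-flowering buds, with a chi-square per degree of freedom of 0.558. Per 100 counts of jre-MIR159-2 the same value was 4.14. Per 100 counts of jre-MIR159-9, jre-MIR159-40 had 0.649, 0.685 and 0.547 in early-flowering buds, against 0.715, 0.954 and 0.742 in late-flowering buds, with a value of 1.39, and 5.98 relative to jre-MIR159-2. Against the single form with the same 3′ change, every early-flowering library lay below every late-flowering library for both (log2 differences -0.28 and -0.35, exact permutation p = 0.1 each, the smallest possible), while against jre-MIR159-2 the types overlapped for both. These pairs were chosen after the values were seen. jre-MIR159-48, 20 bases with T20C, had 3.39 relative to jre-MIR159-9 and 7.83 relative to jre-MIR159-2. Its ratio to jre-MIR159-9 overlapped between types (log2 difference -0.40, exact permutation p = 0.3). The scarce jre-MIR159-19, with T1A and T20C, also overlapped relative to jre-MIR159-9, with the opposite sign (log2 difference 0.30, exact permutation p = 0.9).

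In levels, 21 of the 41 miR159 sequences passed the filter on low counts, and 2 of these 21 rose in early-flowering buds, 0 fell and 19 did not pass, under edgeR with Benjamini-Hochberg adjustment over all 243 sequences tested. Of all tested sequences, 11.5% passed, 4.94% higher in early-flowering buds. All 21 tested fold changes were positive, from 0.29 to 1.76 on the log2 scale with a median of 0.66; over all tested sequences 56.8% were positive, with a median of 0.13. In 11 of the 21, every early-flowering library lay above every late-flowering library, against 19.8% of all tested sequences. Most of the 21 are forms of 1 sequence, and they are not independent of it or of each other.

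**Figure D4:**
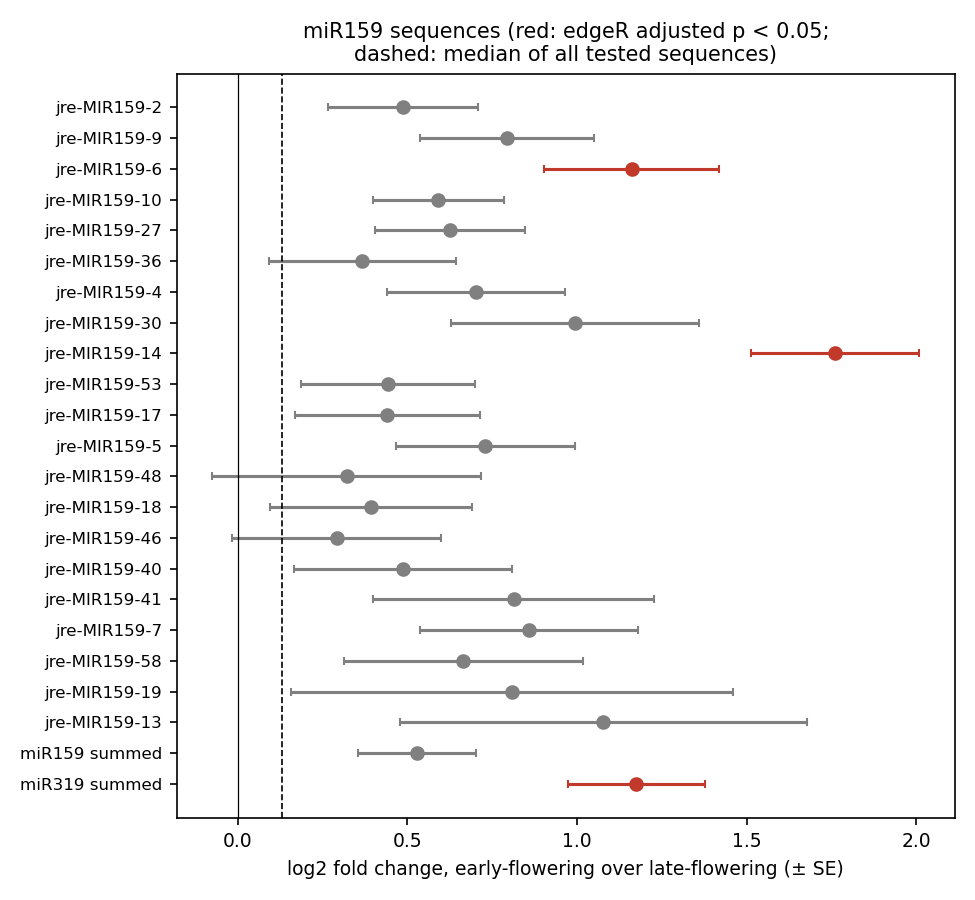
Log2 fold change of early-flowering over late-flowering buds (± SE, edgeR) for each tested miR159 sequence, in order of abundance, and for the summed miR159 and miR319 families. Red points passed an adjusted p of 0.05 and the dashed line is the median of all tested sequences, 0.13; all 21 miR159 sequences lie above 0, and jre-MIR159-6 and jre-MIR159-14 passed.

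jre-MIR159-6 (A21G) had 28233, 19950 and 15092 CPM in early-flowering buds, against 9414, 9052 and 9839 CPM in late-flowering buds. The late-flowering libraries were close together and the early-flowering ones spread widely, without overlap. Its log2 fold change was 1.16 (SE 0.26, edgeR adjusted p = 0.0248). Without early-flowering replicate 1, the highest and also the library with the fewest counts, it was 0.84 and passed (edgeR adjusted p = 0.0261). In that fit 54 of 268 tested sequences passed. The call was lost without early-flowering replicate 2 or any 1 of the late-flowering libraries, where the edgeR adjusted p was 0.0665 to 0.119, and with the replicate number as a block (edgeR adjusted p = 0.0557). In those left-out fits jre-MIR159-6 kept a log2 fold change of 1.07 to 1.16, while fewer sequences passed in all. Without early-flowering replicate 2, 7 of 242 tested sequences passed, against 28 of 243 in the main fit. Without late-flowering replicates 1, 2 and 3 in turn, 17 of 248, 7 of 271 and 2 of 265 passed. The ratio of jre-MIR159-6 to jre-MIR159-2, given above, overlapped between types (log2 difference 0.61, exact permutation p = 0.3).

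The other forms changed at the 3′ end did not pass. jre-MIR159-9 averaged 18462 ± 4482 CPM in early-flowering buds, against 10651 ± 2013 CPM in late-flowering buds (SD, n = 3 each; log2 0.79, edgeR adjusted p = 0.0833). jre-MIR159-10 averaged 17168 ± 2006 CPM and 11395 ± 721 CPM in the same order of types (log2 0.59, edgeR adjusted p = 0.0853). jre-MIR159-27 had 3361, 3487 and 2498 CPM in early-flowering buds, against 2022, 1929 and 2102 CPM in late-flowering buds (log2 0.63, edgeR adjusted p = 0.102). None of these 3 overlapped between types. jre-MIR159-4, the seed-changed form, had 788, 875 and 960 CPM in early-flowering buds, against 692, 481 and 441 CPM in late-flowering buds, also without overlap (log2 0.70, edgeR adjusted p = 0.106).

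jre-MIR159-14 had the highest fold change among the tested miR159 sequences. It had 461, 572 and 468 CPM in early-flowering buds, against 153, 146 and 144 CPM in late-flowering buds, so the lowest early-flowering library stood well above every late-flowering one. The fold change was 3.39 (log2 1.76, SE 0.25, edgeR adjusted p = 0.00536). Leaving out single libraries gave log2 values of 1.61 to 1.78, and the call was missed without late-flowering replicate 3 (edgeR adjusted p = 0.0555).

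By sequence, jre-MIR159-14 stands nearer to miR319 than to jre-MIR159-2, with which it was not near-identical. It contains all of jre-MIR159-3, which is matched to miR319, behind 1 extra 5′ base. The pair is shown with seeds in capitals; the extra base moves the seed by 1 position, and the seed of jre-MIR159-14 equals that of jre-MIR159-4.

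jre-MIR159-14: cTTGGACTgaagggagctccc

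jre-MIR159-3: tTGGACTGaagggagctccc

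jre-MIR159-3 had 4806, 5503 and 4975 CPM in early-flowering buds, against 2106, 2466 and 2611 CPM in late-flowering buds (log2 1.09, edgeR adjusted p = 0.0143). Per 100 counts of jre-MIR159-3, jre-MIR159-14 had 9.59, 10.4 and 9.41 in early-flowering buds, against 7.25, 5.92 and 5.51 in late-flowering buds. These ranges did not overlap (log2 difference 0.66, exact permutation p = 0.1, the smallest possible). Relative to jre-MIR159-2 the log2 difference of jre-MIR159-14 was 1.25 (exact permutation p = 0.1, the smallest possible, and a Benjamini-Hochberg value of 0.894 over the 19 ratios compared). Of the 20 forms compared with jre-MIR159-2, 3 did not overlap, all higher in early-flowering buds; of all other tested sequences 6.20% lay higher in this way and 31.8% lower.

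**Figure D5:**
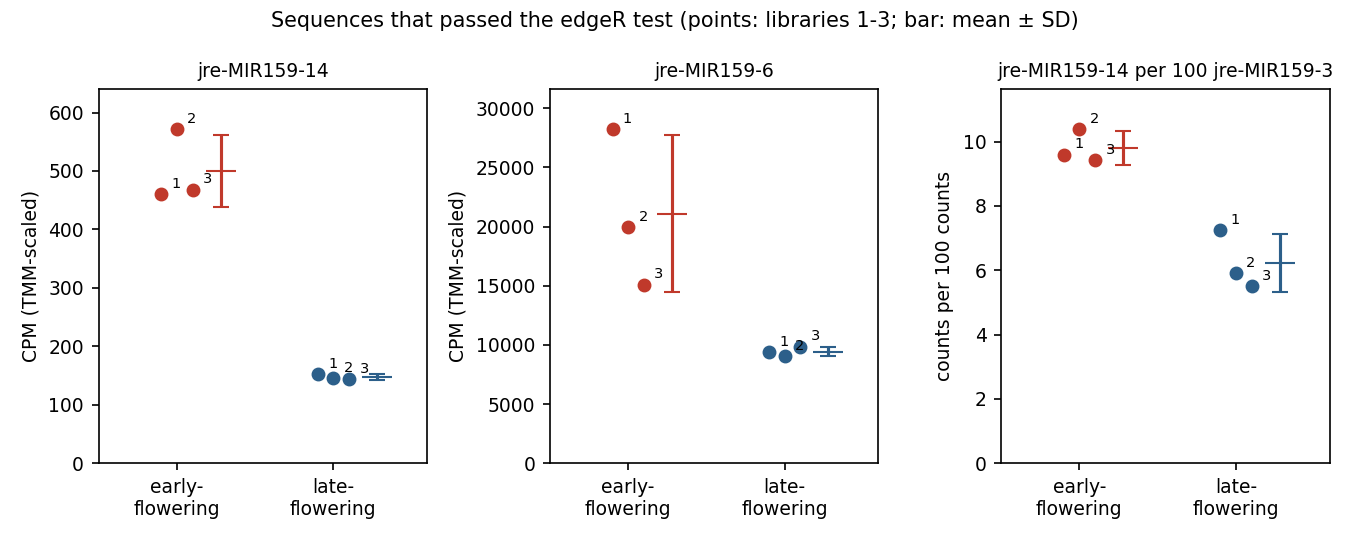
Levels of jre-MIR159-14 and jre-MIR159-6 (TMM-scaled CPM) and counts of jre-MIR159-14 per 100 counts of jre-MIR159-3, by walnut type, with libraries as numbered points and mean ± SD as bars. Early-flowering libraries lie above late-flowering ones in each panel, with jre-MIR159-14 at 461 to 572 CPM against 144 to 153 CPM.

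The summed miR159 counts were 58.2, 56.4 and 78.9 times those of miR319 in early-flowering buds, against 155, 82.9 and 75.7 times in late-flowering buds. The ranges overlapped, and the log2 difference was -0.63 (exact permutation p = 0.2; the smallest that 3 against 3 libraries allow is 0.1, so this test could not pass 0.05). The miR319 sum rose in early-flowering buds without overlap, with 7179, 8427 and 6424 CPM, against 2631, 3438 and 3689 CPM in late-flowering buds (log2 1.17, SE 0.20, edgeR adjusted p = 0.00276). Whether this change differs from the 0.53 of the miR159 sum is not settled by these libraries.

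Sequences matched to the 5′ arm of the precursor were scarce. The pair with at least 60 counts are shown because they paired best with different sequences, together with jre-MIR159-50, a sequence of 8 counts that was chosen for its pairing after its values were seen.

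jre-MIR159-17: gagctccttgaagtccaatg

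jre-MIR159-30: agctgctgagttatggatc

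jre-MIR159-50: ttccatatctcgggagcttc

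Laid antiparallel without gaps, jre-MIR159-17 faced jre-MIR159-2 over 19 bases, with 14 Watson-Crick pairs and 2 G-T pairs, and left 2 bases of jre-MIR159-2 and 1 of jre-MIR159-17 free at their 3′ ends. Over the same 19 bases it formed 15 and 2 with jre-MIR159-11, and 15 and 1 with jre-MIR159-14. A pair of sequences with 21 and 9 counts in all equalled jre-MIR159-2, and jre-MIR159-11 had 3 counts. jre-MIR159-30 formed only 6 Watson-Crick and 3 G-T pairs with jre-MIR159-2. It formed 14 and 1 with jre-MIR159-50 over 18 bases, again with 2 bases of the partner and 1 of its own free at the 3′ ends. A Dicer-cut duplex usually has 2 free bases at both 3′ ends, which neither pair showed. The search was over all offsets of at least 10 facing bases, among miR159 sequences whose matched name gives no 5′ arm. It left out the 25 forms near-identical to jre-MIR159-2, so how well those forms pair was not examined.

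jre-MIR159-17 had 134, 163 and 152 CPM in early-flowering buds, against 130, 85.8 and 116 CPM in late-flowering buds, a narrow separation (log2 0.44, SE 0.27, edgeR adjusted p = 0.260). Per 100 counts of jre-MIR159-2 it had 0.0387, 0.0403 and 0.0335 in early-flowering buds, against 0.0353, 0.0340 and 0.0480 in late-flowering buds, and its chi-square per degree of freedom was 1.25. This ratio varied between libraries by about as much as counting error.

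jre-MIR159-30 was more abundant and more variable, with 337, 764 and 727 CPM in early-flowering buds, against 388, 281 and 250 CPM in late-flowering buds. Early-flowering replicate 1 lay among the late-flowering libraries, and the edgeR adjusted p was 0.106 (log2 0.99, SE 0.37). Without that replicate the log2 fold change was 1.25 and passed (edgeR adjusted p = 0.0107), in a fit where 54 of 268 tested sequences passed. Per 100 counts of jre-MIR159-2 it had 0.0972, 0.189 and 0.160 in early-flowering buds, against 0.105, 0.111 and 0.104 in late-flowering buds.

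Of the remaining 12 singly described sequences, 11 were tested and none passed (edgeR), with log2 fold changes of 0.29 to 0.86. Among them, jre-MIR159-18 averaged 126 ± 29.4 CPM in early-flowering buds, against 95.1 ± 18.3 CPM in late-flowering buds (SD, n = 3 each). The types overlapped for it (log2 0.39, edgeR adjusted p = 0.342). jre-MIR159-13, below 60 counts, was also tested (log2 1.08) and missed the threshold, with an edgeR adjusted p of 0.226. jre-MIR159-26 was not tested: its counts were 4, 21 and 44 in early-flowering buds, against 6, 0 and 0 in late-flowering buds, so it was at 0 in late-flowering replicates 2 and 3, where a floor of 3 counts equals 6.44 and 5.61 CPM. It entered the test under other settings, as a further miR159 sequence. It passed higher in early-flowering buds with no filter and when replicate 1 of either type was left out. It missed the threshold with a filter of 10 CPM in 3 libraries and when late-flowering replicate 2 or 3 was left out. Wherever a filter was used, jre-MIR159-26 was admitted only by its early-flowering counts. The calls after a filter are therefore no support for a higher level in early-flowering buds. jre-MIR159-19 ranged from 17.5 to 42.5 CPM in early-flowering buds, against from 5.27 to 31.8 CPM in late-flowering buds. The 20 sequences below 60 counts summed to 20, 63 and 46 counts in early-flowering buds, against 31, 23 and 37 in late-flowering buds, or 81.6 ± 18.6 and 57.6 ± 10.3 CPM (SD, n = 3 each).

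The 3 tested sequences of families other than miR159 and miR319 whose log2 CPM followed jre-MIR159-2 most closely over the 6 libraries, out of 216, were jre-MIR172-5 (Pearson r = 0.975), jre-MIR171_2-7 (0.958) and jre-MIR171_2-11 (0.951). These are descriptions without a test, over libraries that share their scaling. By matched name, jre-MIR172-5 and jre-MIR171_2-11 are 5′ arm sequences and jre-MIR171_2-7 is a 3′ arm sequence. jre-MIR172-5 had 75.7, 83.3 and 146 CPM in early-flowering buds, against 87.8, 40.8 and 29.9 CPM in late-flowering buds. Like jre-MIR159-2, its late-flowering replicate 1 lay above early-flowering replicate 1.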

How the data were processed

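Small RNA libraries of flower buds, 3 per walnut type, were analysed from 1 table. It holds, in the authors' deposited form, a raw count per listed mature sequence and library, with a matched name. The submitters' processing notes name DESeq2, HISAT2, Cufflinks and FastQC, with no role for any of them; the steps behind the miRNA counts, including the mismatches allowed, are not given in those sources. Groups came from the sample titles. The mRNA table was not used here, since its gene IDs carry no names.

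Counts were tested with edgeR 4.0.16 (R 4.3.3; TMM, filterByExpr with a minimum count of 10, robust quasi-likelihood fit, walnut type as the only term, threshold 0.05, Benjamini-Hochberg adjustment), and the fits were tested on simulated data. Family sums, with miR156 and miR157 joined, used the sequence-level scaling. Alternatives were DESeq2 1.42.0 and its size factors, limma 3.58.1, other filters and scalings, merging, leaving out single libraries, and the replicate number as a block. Exact permutation tests used SciPy 1.17.1. Singly named sequences were all miR159 sequences with at least 60 counts; likeness used log2(CPM + 1). The members and lists were chosen with earlier results of these data known. Replicate libraries of a type differed by more than counting error alone, with a chi-square per degree of freedom of 32.8 to 150. None was therefore counted as a repeat of another, but this does not show that they came from separate trees. A floor of 3 counts equals 4.76 to 10.3 CPM.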

Additional observations from a re-analysis of the deposited data

How the results depend on the processing

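All alternatives were planned; none was added. The 2 miR159 calls, jre-MIR159-6 and jre-MIR159-14, stood under DESeq2 size factors, total counts, TMM without jre-MIR159-2, DESeq2, limma-trend and a filter of 10 CPM in 3 libraries, and without a filter there were 3, the third being jre-MIR159-26. With near-identical sequences merged there were 0 calls among miR159 sequences, since jre-MIR159-6 merges into jre-MIR159-2 and jre-MIR159-14 into jre-MIR159-3; 11 miR159 sequences were then tested, and jre-MIR159-2 stood at 0.48 on the log2 scale (edgeR adjusted p = 0.0936). The replicate block left 1 call. Libraries with the same replicate number did not deviate together (correlations across sequences of -0.098, -0.076 and -0.34), so the numbers are not taken to pair them. Leaving out single libraries gave 0 to 4 calls. There were 0 without late-flowering replicate 3, and 4 without early-flowering replicate 1 (jre-MIR159-26 and jre-MIR159-30 added). Without late-flowering replicate 1 the 2 calls were jre-MIR159-14 and jre-MIR159-26. In the left-out fits that called it, jre-MIR159-26 entered only through its early-flowering counts. Calls over all sequences moved too, at 2 of 265, 54 of 268 and 17 of 248 in the same order, against 28 of 243 in the main fit. They were 17 of 243 with the replicate block, 19 of 143 with merging and 40 of 931 with no filter. The summed family passed under DESeq2 size factors (log2 0.49, edgeR adjusted p = 0.0440), total counts (0.46, edgeR adjusted p = 0.0310) and TMM without jre-MIR159-2 (0.43, edgeR adjusted p = 0.0164). Under each of these scalings 7 of 37 families passed. The log2 fold change of the sum ranged from 0.30 to 0.72 over the left-out libraries, and the cause was not tested. jre-MIR159-2 did not pass in 15 of 15 alternatives, with log2 values of 0.23 to 0.70 over the left-out libraries. The median over the 243 sequences was 0.02 under TMM without jre-MIR159-2, against 0.13, and all 21 miR159 fold changes stayed positive. Among forms that did not pass, the sign changed for jre-MIR159-48 (-0.027 to 0.55 over the left-out libraries, and -0.00046 without early-flowering replicate 2) and jre-MIR159-46 (-0.096 to 0.44). The dominant share differed by -4.44 to -0.991 points and the near-identical ratio by 0.11 to 0.55 (log2) over the left-out libraries, and by -2.52 points and 0.30 with the other definitions. The ratio for end variants without a mismatch could not be computed, because no such form was listed. Counting error is large for forms with few counts, such as jre-MIR159-26 with 75. The ratio of jre-MIR159-26 to jre-MIR159-2 still spread more than counting error gives (chi-square per degree of freedom 10.8).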
